A study of Mus musculus with 9 samples.

Results

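Macrophages take up dying red cells and free haemoglobin, break the heme down and either store the iron or return it to the plasma. Heme is moved out of the phagolysosome, opened by heme oxygenase to biliverdin, carbon monoxide and iron, and the iron is caged in ferritin, a shell of heavy and light chains, or exported through ferroportin. Ferritin and ferroportin are also controlled after transcription: iron regulatory proteins bind a hairpin, the iron responsive element, near the 5′ end of their mRNAs and hold back translation when iron is low, so RNA levels are not protein levels.

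Expression of 9 genes of this route was followed per cell: Cd163, Slc48a1, Slc11a1, Hmox1, Blvra, Blvrb, Fth1, Ftl1 and Slc40a1, of 27998 genes in the deposited matrix. The genes were taken for their known roles, not by a threshold on these data, but with earlier results of these data known. In GENCODE M21 (GRCm38), Slc40a1 lies at chr1:45908068-45926523 and Slc11a1 at chr1:74375195-74386062, Blvra at chr2:127070665-127097084, Cd163 at chr6:124304656-124330527, Blvrb at chr7:27447978-27466144 and Slc48a1 at chr15:97778520-97792692, all protein-coding. The cells came from 1 single-cell library (10x Genomics) of ascites, the fluid of the peritoneal cavity, from a mouse model of ovarian cancer made with ID8-Def29/Vegf cells. The labels give the genotype as B6_WT and name no treatment, age or number of animals. The 8 bulk libraries of the series (4 vehicle, 4 deferiprone for 12 h) were not analysed here. With 1 library, no difference between cells has a replicate check: values are sums of unique molecular identifiers (UMIs, counted molecules) per 1000000 UMIs of the same cells (CPM), and the 95% intervals cover counting error only.

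A barcode was kept if it had 500 UMIs or more from 200 genes or more and no more than 15% mitochondrial UMIs, which left 6442, with a median of 3300 UMIs and a range of 500 to 19947. Macrophages were the 1076 of them (16.7%) with at least 3 UMIs of C1qa, C1qb and C1qc together and at most 1 UMI of Krt8, Krt18, Krt19, Wt1 and Upk3b together. They had a median of 1639.5 UMIs, against 3952 in the 5366 other cells, of which 3699 were tumour-like (at least 3 UMIs of those 5 epithelial or mesothelial genes). All 12 macrophage markers had UMIs in the macrophages, including markers that the rule did not use: Lyz2 was at 15318 CPM in macrophages and 220 CPM in other cells, Apoe at 34182 and 500 CPM, Csf1r at 369 and 6.85 CPM, and Adgre1 at 71.4 and 1.70 CPM. Markers of resident peritoneal macrophages were sparse in them: Cd209b had 0 UMIs, Timd4 2, F5 3 and Gata6 21. Icam2 had 22 UMIs, Prg4 26 and Vsig4 81. Vsig4 was nevertheless higher in macrophages than in other cells, at 42.5 and 0.306 CPM. So were Prg4, at 13.6 and 2.14 CPM, and Icam2, at 11.5 and 2.49 CPM. Gata6 went the other way, seen in 1.95% of macrophages and 46.8% of other cells, as did Cd209b, with 2 UMIs in other cells. Scrublet marked 89 of the 6442 barcodes as doublets (1.38%), 0 of them macrophages.

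The part of the macrophage profile that is free RNA caught in the droplet was estimated at 10.1%, from tumour genes in macrophages and barcodes with 1 to 50 UMIs. It would give 764 CPM of Fth1, 19.2 CPM of Hmox1 and 1.32 CPM of Cd163 in macrophages, far below the levels measured.

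The hairpin that links storage to export is shown for the 3 genes that carry it and for Tfrc, the transferrin receptor gene, whose hairpins lie in the 3′ UTR. A search of the mouse transcripts of GENCODE M21 (GRCm38) for the loop CAGTGN, closed by a stem of 5 base pairs with an unpaired C below it, found a 5′ UTR match in 3 of the 9 genes and in 23 of 21901 protein-coding genes (0.105%). N was any base but G, and the transcript strand alone was searched. The loop is in capitals.
Fth1 (chromosome 19, plus strand, 5′ UTR): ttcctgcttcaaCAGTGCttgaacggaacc
Ftl1 (chromosome 7, minus strand, 5′ UTR): gtcttgcttcaaCAGTGTttgaacggaaca
Slc40a1 (chromosome 1, minus strand, 5′ UTR): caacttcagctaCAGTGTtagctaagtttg
Tfrc (chromosome 16, plus strand, 3′ UTR, the first of 4): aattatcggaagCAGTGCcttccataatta
The sites of Fth1 and Ftl1 share the stem strand before the loop, and that of Slc40a1 has another. No match in the other 6 genes says only that these letters were not found in their annotated transcripts. Tfrc itself had 9 UMIs in all macrophages, 4.72 CPM, against 14.0 CPM in other cells.

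Every one of the 9 genes was higher in macrophages than in other cells, 8 of them by at least 2-fold, where 12.1% of the 10686 genes with at least 50 UMIs in both together were at least that much higher and 34.5% at least that much lower. The median log2 ratio was 2.73 over the 9 genes and -0.53 over all genes tested. As the 9 genes were chosen with earlier results of these data known, these values describe them and are no test. Cd163, Slc11a1, Hmox1 and Slc40a1 stood furthest apart, ferritin and the biliverdin reductases less so, and the heme transporter Slc48a1 least.

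Cd163, the receptor for haptoglobin bound to haemoglobin, was at 124 CPM in macrophages and 1.18 CPM in other cells (237 and 27 UMIs), a ratio of 106 with an interval of 70.7 to 164. Hmox1, heme oxygenase 1, was at 2449 CPM in macrophages and 54.6 CPM in other cells, 44.8-fold higher (42.1 to 47.7). Slc11a1, which moves divalent metal out of the phagosome, was at 110 and 1.57 CPM in macrophages and other cells, 70.1-fold higher (49.1 to 103). Slc40a1, ferroportin, rested on 53 UMIs in macrophages and 32 in other cells, 27.8 and 1.40 CPM, 19.9-fold higher (12.6 to 31.9). Macrophages with 1 epithelial UMI counted as other cells where the rule allowed none, and the log2 ratio was then 4.55 for Cd163, 4.73 for Hmox1 and 5.31 for Slc11a1, against 6.72, 5.49 and 6.13. With tumour-like cells alone as reference and free RNA subtracted, it was 9.70, 7.06 and 9.53. For these 4 genes the macrophages held most of the UMIs in the barcodes that passed the filter, although they were the smaller group.

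Ferritin was abundant everywhere. Fth1, the heavy chain with the ferroxidase site, was at 23901 CPM in macrophages and 6569 CPM in other cells, 3.64-fold higher (3.60 to 3.68). Ftl1, the light chain that helps the mineral core to form, was at 20110 and 3022 CPM, 6.66-fold higher in macrophages (6.57 to 6.74). Of the biliverdin reductases, Blvrb was at 498 CPM in macrophages and 102 CPM in other cells, 4.87-fold higher (4.51 to 5.25), and Blvra at 81.3 and 27.2 CPM, 2.99-fold higher (2.49 to 3.57). Slc48a1, which carries heme out of the phagolysosome, was at 195 and 119 CPM, 1.64-fold higher (1.47 to 1.83). Slc48a1 overlaps Hdac7 on the opposite strand, and whether the authors' counting used strand is not given in the sources used here.

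**Figure D1:**
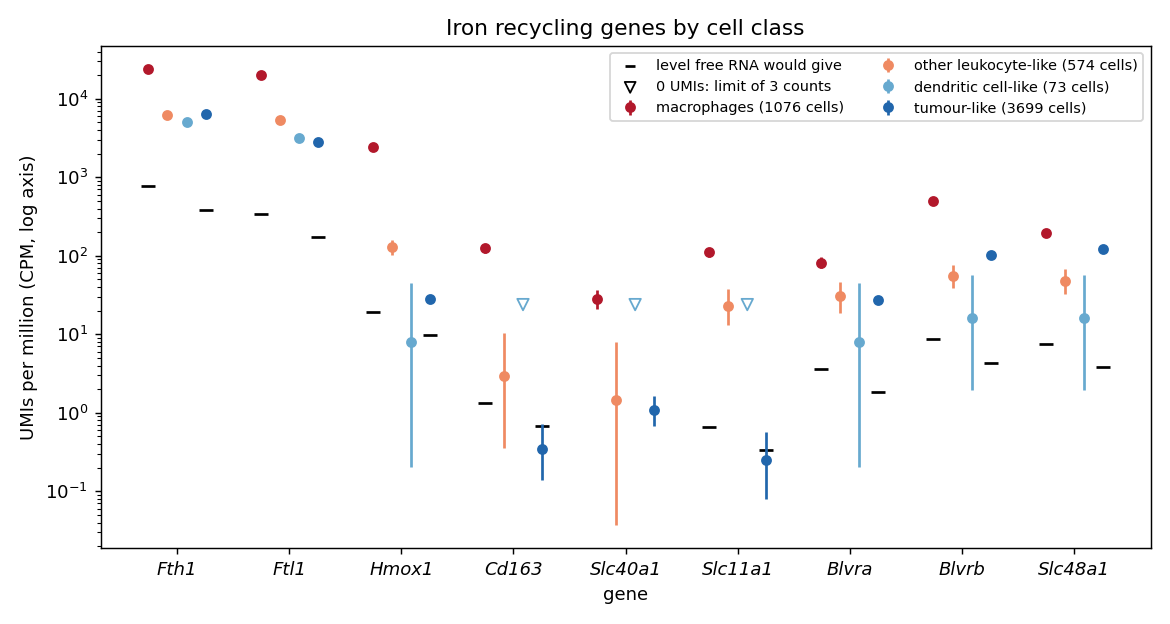
CPM (log axis) of the 9 genes in macrophages, other leukocyte-like, dendritic cell-like and tumour-like cells. Points are sums with exact 95% Poisson intervals, short black lines are the levels free RNA would give in macrophages and tumour-like cells, and open triangles mark the limit of 3 counts where no UMI was seen. Macrophages lead at every gene, with Slc48a1 at 195 CPM closest to the tumour-like cells.

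Which cells macrophages were set against changed the order. Against the 574 other leukocyte-like cells (at least 2 UMIs of Ptprc, Coro1a, Laptm5, Cd52 and Cd53, and no more than 2 of C1q), Slc48a1 was 4.07-fold higher in macrophages (2.84 to 5.99) and Blvrb 9.04-fold higher (6.54 to 12.9). Slc11a1 was 4.75-fold higher in macrophages than in these leukocytes (2.85 to 8.46), but 446-fold higher than in tumour-like cells (188 to 1389), where it had 5 UMIs in 3699 cells. Hmox1 was 18.97-fold higher in macrophages than in other leukocyte-like cells (15.4 to 23.7). In 73 dendritic cell-like cells Cd163, Slc40a1 and Slc11a1 had 0 UMIs, with an exact interval that reaches 29.4 CPM. That limit does not tell Slc40a1 there from its 27.8 CPM in macrophages.

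The balance of the ferritin chains differed between classes. Fth1 had 1.19 UMIs for each of Ftl1 in macrophages (1.17 to 1.20) and 1.17 in other leukocyte-like cells (1.12 to 1.23). The ratio was 1.58 in dendritic cell-like cells (1.39 to 1.80), 2.26 in 84 B cell-like cells (1.82 to 2.84) and 2.29 in tumour-like cells (2.27 to 2.31). Transcripts can differ in capture, so the ratio is compared only between classes. Ftl1 has a near-identical copy in the matrix, Gm10116 (Ftl1-ps1 in GENCODE M21), with 950 UMIs in macrophages against 38327 for Ftl1, so a small share of the reads may be divided between them.

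The C1q threshold cut through a gradient. Among cells with at most 1 UMI of the epithelial genes, Fth1 was at 6087 CPM with no C1q UMI, 7078 CPM with 1 to 2, 14403 CPM with 3 to 5, 18051 CPM with 6 to 10, 19772 CPM with 11 to 20, 26676 CPM with 21 to 50 and 37378 CPM with 51 to 70. Hmox1 was at 79.1, 326, 1135, 1733, 1774, 2881 and 3677 CPM over the same strata. In Fth1 the cells just outside the rule, with 1 to 2 C1q UMIs, were thus nearer to C1q-negative cells. In Hmox1 they lay between the strata on both sides. Ftl1 reached 17175 CPM at 3 to 5 UMIs and 22529 CPM at 51 to 70. Median depth moved with the strata, between 1012 UMIs at the lowest and 3107 at the highest, and its part in the result was not tested. The 99 barcodes with both C1q and epithelial UMIs lay between macrophages and tumour-like cells, with Fth1 at 11446 CPM and Hmox1 at 988 CPM.

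Of the 52 other iron and heme genes, also chosen with earlier results of these data known, 40 had enough UMIs to be set against other cells. In macrophages 14 were at least 2-fold higher and 9 at least 2-fold lower, with a median log2 ratio of 0.18. The scavenger receptors were among those furthest up: Msr1 at 103-fold, Marco at 78.6-fold, Cd36 at 72.4-fold and Mrc1 at 59.0-fold. Regulators did not move as a group: Fbxl5, which marks iron regulatory protein 2 for destruction, was 4.16-fold higher and Bach1, the heme-sensing repressor of Hmox1, 3.94-fold higher, while Nfe2l2, an activator of Hmox1, was at 0.644 of its level in other cells and Mafg, a partner of both, at 1.06. Hfe, a regulator of iron uptake, was 4.54-fold higher. Slc7a11, the cystine importer, was 29.9-fold higher and Hmox2, the constitutive heme oxygenase, 2.62-fold higher in macrophages. Pcbp2, an iron chaperone and RNA-binding protein, was at 0.487 of its level in other cells, and the plasma iron carrier gene Trf differed little, at 855 CPM in macrophages and 811 CPM in other cells.

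Within macrophages the genes differed widely in their UMIs per cell. Fth1 had a lowest, median and highest count of 1, 27 and 327 UMIs per macrophage. Ftl1 had 0, 28 and 255 UMIs, with 2 cells at 0. Ferritin was thus detected in every macrophage, but its level was far from uniform.

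Hmox1 had a lowest, median and highest count of 0, 2 and 39 UMIs. No UMI of it was seen in 29.1% of macrophages, where an even level at each cell's depth would leave 3.68% without one. It was seen in 70.9% of macrophages (68.1 to 73.6) and in 11.7% of tumour-like cells, which had a median depth of 5011 UMIs. Blvrb had at most 9 UMIs and was seen in 541 macrophages, and 49.7% were without it, against 43.9% from an even level. Blvra was seen in 139, Slc48a1 in 294 and Slc11a1 in 182 macrophages, and their shares without a UMI lay within 1.5 percentage points of those from an even level.

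Cd163 was seen in 150 macrophages (13.9%), with at most 7 UMIs in a cell, and 86.1% had none, against 80.6% from an even level. Slc40a1 was seen in 41 macrophages (3.81%, 2.75 to 5.13), with at most 3 UMIs.

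To compare spread at 1 depth, 950 macrophages with at least 1000 UMIs were thinned to 1000 UMIs each. The variance over the mean, which is near 1 for an even level, was 10.3 for Fth1, 5.47 for Ftl1, 3.31 for Hmox1, 1.51 for Cd163 and 1.34 for Slc40a1. It was 1.07 for Blvrb, 1.04 for Slc11a1, 1.04 for Slc48a1 and 0.948 for Blvra. Arg1, for comparison, had 2.82. At this depth the spread of the reductases, Slc11a1 and Slc48a1 was not detectably wider than counting error, while ferritin, Hmox1 and Cd163 varied beyond it. For the same relative spread this measure grows with the mean count. That mean was 21.9 for Fth1, 19.7 for Ftl1, 2.19 for Hmox1, 0.513 for Blvrb, 0.112 for Cd163 and 0.0789 for Blvra. The measure therefore does not rank the genes by evenness, and a value near 1 at a low mean does not show an even level. Detection in thinned cells was 65.3% for Hmox1, 39.3% for Blvrb and 8.63% for Cd163.

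**Figure D2:**
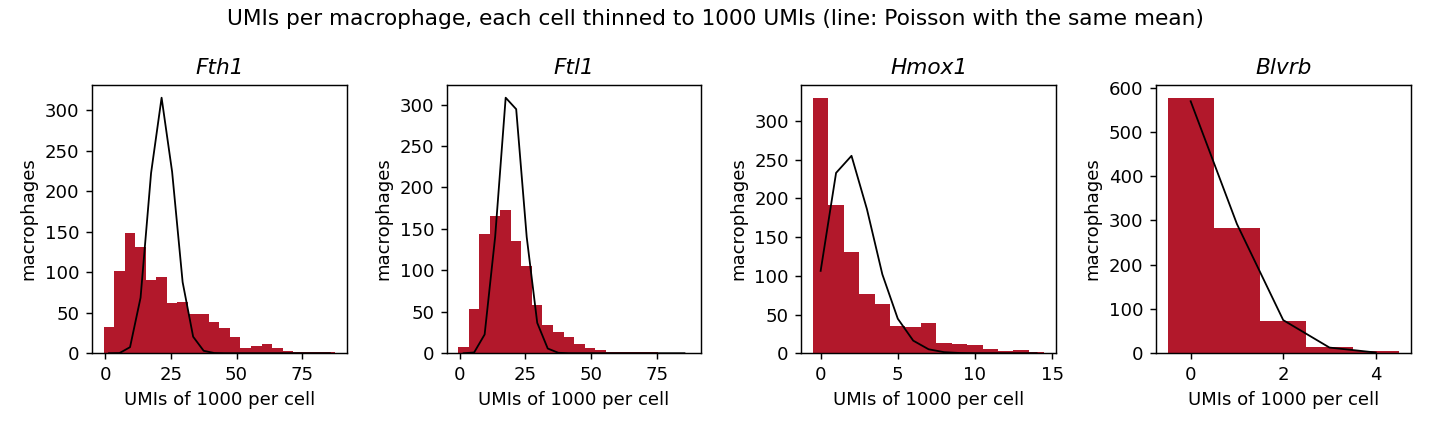
UMIs per macrophage of Fth1, Ftl1, Hmox1 and Blvrb in 950 macrophages thinned to 1000 UMIs each (x axis) against the number of macrophages (y axis). The black line is a Poisson distribution with the same mean; Fth1, Ftl1 and Hmox1 spread beyond it, with variance over mean of 10.3, 5.47 and 3.31, and Blvrb lies close to it at 1.07.

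A macrophage had UMIs of a median of 4 of the 9 genes. The number of macrophages was 145 with 2 genes, 293 with 3, 281 with 4, 208 with 5, 121 with 6, 23 with 7 and 5 with 8, and none had all 9. Of the 41 macrophages with Slc40a1, 39 had Hmox1 as well, and 131 of the 150 with Cd163 had Hmox1. Hmox1 and Blvrb were seen together in 429 macrophages. Cd163 and Slc40a1 met in 10. Each such count also moves with depth.

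Across the thinned macrophages the closest pair was Fth1 and Ftl1, with a Spearman correlation of 0.64 over 950 cells. Fth1 and Hmox1 followed at 0.50, Ftl1 and Hmox1 at 0.33 and Fth1 and Blvrb at 0.26. Pairs of Slc11a1 with Arg1 or with another member in reach of the thinned counts lay between -0.02 and 0.08, which at these counts is no finding. All cells share 1 library, so the correlations are descriptions. The Fth1 and Hmox1 value was 0.44 in the macrophages at or below the median MHC class II level and 0.52 in those above it.

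The genes most like Fth1, among 392 genes seen in at least 25% of thinned macrophages, were Wfdc17 (0.54), Pf4 (0.49) and the lysosomal proteases Ctsb (0.47) and Ctsd (0.46), then Lyz2 (0.43). For Hmox1 they were Wfdc17 (0.44), Pf4 (0.38), Fcna, a ficolin (0.36), Ctsd (0.33) and Ctsb (0.32). Ftl1 went most with the peroxiredoxin gene Prdx1 (0.33), its own copy Gm10116 (0.32), Ctsb (0.32), Pf4 (0.32) and Wfdc17 (0.31). Blvrb was most like Pf4 (0.27), Prdx1 (0.20), Ctsb (0.18), Wfdc17 (0.18) and Sepp1 (0.16). The genes most opposed to Fth1, named after their values were seen, were those of MHC class II antigen presentation: Cd74 (-0.44), H2-Aa (-0.41), H2-Eb1 (-0.40) and H2-Ab1 (-0.39). The median over all 392 genes was -0.02.

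When macrophages were ordered by Fth1 per UMI into quartiles of 269 cells, all other members were lowest in the lowest quartile and highest in the highest, though for Blvra the intervals of those quartiles, 38.7 to 91.5 and 78.1 to 131 CPM, overlapped. Hmox1 was at 716, 1224, 2900 and 4027 CPM, low to high. Blvrb was at 268, 395, 543 and 679 CPM, and Slc48a1 at 101, 147, 199 and 284 CPM. Ferroportin was the most skewed: Slc40a1 had 1, 3, 10 and 39 UMIs over the quartiles. Cd163 was at 79.6, 87.4, 148 and 159 CPM. Median depth was 1349, 1503, 1825 and 2126 UMIs, Cd74 was at 11919, 6489, 3069 and 1917 CPM and Pf4 at 1899, 3464, 5975 and 8635 CPM over the same quartiles, and their part in the result was not tested.

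**Figure D3:**
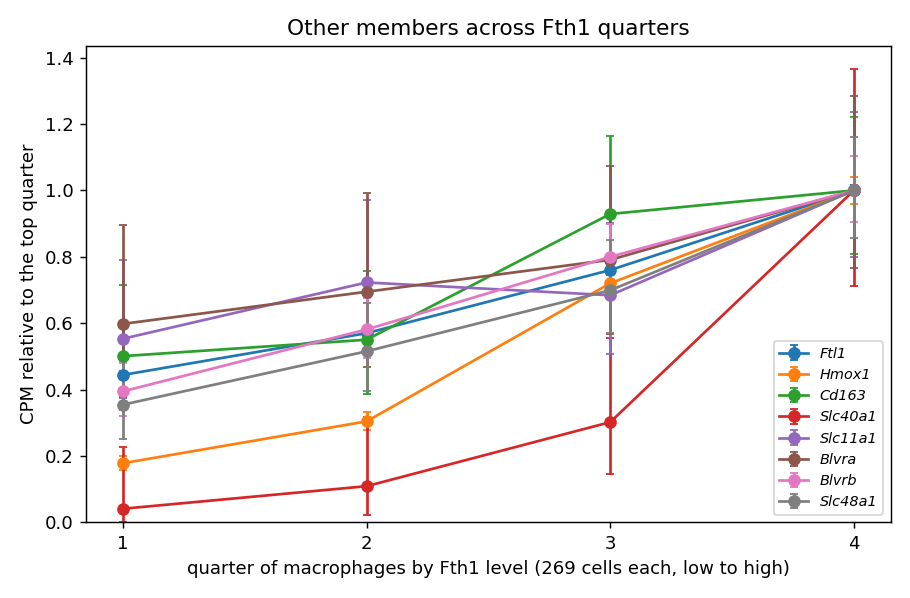
CPM of 8 genes (y axis, relative to the highest quartile, with exact 95% Poisson intervals) in macrophages ordered by Fth1 per UMI into quartiles of 269 cells (x axis, low to high). Hmox1 and Slc40a1 have the steepest lines, at 716 CPM and 1 UMI in the lowest quartile against 4027 CPM and 39 UMIs in the highest.

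When macrophages were ordered by Hmox1 per UMI instead, which uses neither chain, Fth1 was at 12599, 19544, 25492 and 33689 CPM over the quartiles, low to high, and Ftl1 at 15162, 19028, 20152 and 24292 CPM. Both chains climbed at each step, Fth1 over the wider range. Per cell the log2 ratio of Fth1 to Ftl1 UMIs in thinned cells had a median of 0.00, with 5% of cells below -1.65 and 5% above 1.30.

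In the 41 macrophages with a Slc40a1 UMI the storage and heme steps were higher. Fth1 was at 42132 CPM in them and 22954 CPM in the 1035 without, Hmox1 at 5159 and 2308 CPM, and Blvrb at 807 and 482 CPM. Cd163 differed less, at 149 and 123 CPM, within its interval of 81.2 to 249 CPM, as did Arg1 at 1932 and 2141 CPM, within 1661 to 2234 CPM. Cd74 was at 1030 CPM with Slc40a1 and 5436 CPM without, and Fcna at 1698 and 765 CPM. Vsig4, a marker of resident peritoneal macrophages, was at 106 and 39.2 CPM (10 and 71 UMIs), while Timd4 and Gata6 had 0 UMIs with Slc40a1. Cells with a Slc40a1 UMI were deeper, with a median of 2380 UMIs against 1621, and the part of depth was not tested. For Fth1 and Cd74, cells with a UMI of another sparse member differed in the same directions. Fth1 was at 28281 CPM in the 182 macrophages with Slc11a1 and 22795 CPM in those without. With and without Cd163, Fth1 was at 28015 and 23105 CPM. Cd74 was at 2893 and 5808 CPM with and without Slc11a1, and at 2705 and 5708 CPM with and without Cd163. Arg1 did not follow, at 2649 and 2000 CPM with and without Slc11a1 and 2818 and 1998 CPM with and without Cd163. Vsig4 was at 33.8 and 44.7 CPM with and without Slc11a1, and at 51.6 and 40.7 CPM with and without Cd163. Gata6 had 7 UMIs with Slc11a1 and 5 with Cd163.

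Arg1, the arginase gene that marks alternatively activated macrophages, had no UMI in 388 macrophages, and the other 688 were divided at 14.9 and 34.2 Arg1 UMIs per 10000 into 230 low, 229 middle and 229 high. Arg1 was left out of the denominators. Of the 8 members with at least 50 UMIs in the end groups together, 3 were at least 1.5-fold higher with high Arg1 than with none (Hmox1, Cd163 and Fth1), where 10.5% of 1836 genes were, and 0 were at least 1.5-fold lower, where 10.3% of genes were. All 8 were above a ratio of 1, with a median log2 ratio of 0.49, against -0.04 over all genes tested.

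Hmox1 was at 1420, 2453, 2801 and 3336 CPM over the groups with no, low, middle and high Arg1, and was 2.35-fold higher with high Arg1 than with none (2.16 to 2.56). Cd163 was at 62.7, 106, 189 and 156 CPM over the groups, 2.50-fold higher with high Arg1 than with none (1.65 to 3.84). Fth1 was at 17269, 26153, 26624 and 27330 CPM, 1.58-fold higher (1.54 to 1.62). The counting intervals of Hmox1 did not overlap between any of the 4 groups, while for Fth1 nearly the whole difference lay between no Arg1 and low Arg1.

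The rest were below 1.5-fold. Slc48a1 was at 211 CPM with high Arg1 and 150 CPM with none, 1.41-fold (1.04 to 1.90). Slc11a1 was at 128 and 91.3 CPM, 1.40-fold (0.954 to 2.07). Blvrb was at 520 and 412 CPM, 1.26-fold (1.05 to 1.52), Blvra at 85.3 and 71.6 CPM, 1.19-fold (0.754 to 1.89), and Ftl1 at 20825 and 18390 CPM, 1.13-fold (1.10 to 1.16). Slc40a1 had 8 UMIs with high Arg1 and 21 with none, 16.3 and 37.6 CPM, a ratio of 0.432 whose interval of 0.166 to 1.02 holds 1.

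**Figure D4:**
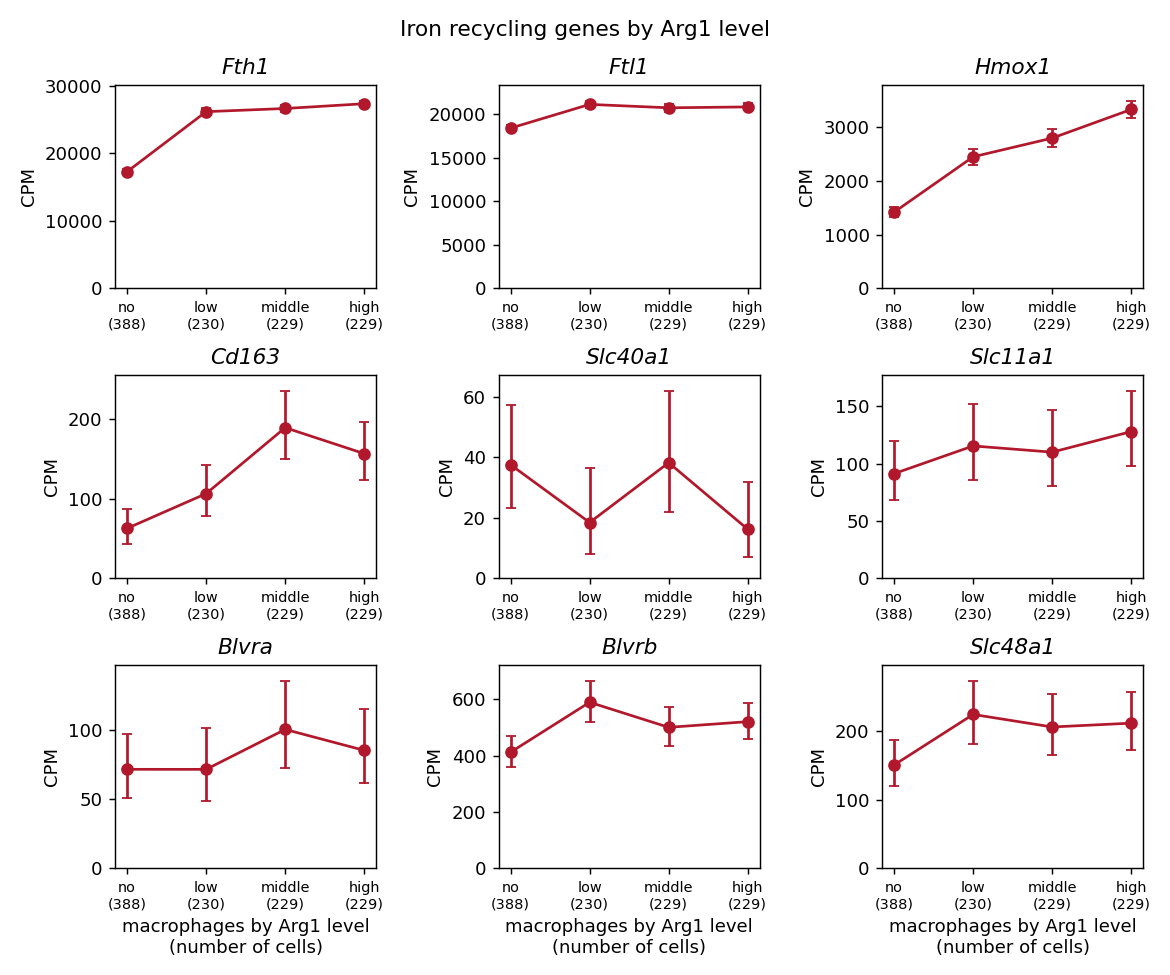
CPM of the 9 genes (y axes, each from 0) in macrophages with no, low, middle and high Arg1 (x axes, number of cells in brackets), with exact 95% Poisson intervals. Hmox1 climbs at each step to 3336 CPM, Fth1 steps up once to 26153 CPM at low Arg1, and Slc40a1 shows no order.

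Other properties moved with Arg1. Median depth was 1394.5, 1747, 1745 and 2036 UMIs with no, low, middle and high Arg1. Cd74, H2-Aa, H2-Ab1 and H2-Eb1 together were at 20381, 9972, 5732 and 3533 CPM, and Pf4 at 2802, 5007, 6485 and 7993 CPM. The 4 monocyte markers summed to 356, 194, 153 and 93.5 CPM, with 4, 3, 3 and 3 of them seen, Vcan at 0 in the low and middle groups and Ly6c2 at 0 in the high group. The 8 dendritic cell markers summed to 51.9, 62.4, 19.1 and 18.3 CPM, with 4, 5, 2 and 2 of them seen and Xcr1 and Itgae at 0 in each group. The 7 resident peritoneal macrophage markers summed to 41.2, 46.2, 76.6 and 163 CPM, with 5, 5, 5 and 4 of them seen and Cd209b at 0 in each group. The 9 neutrophil markers summed to 82.4, 43.9, 254 and 183 CPM, with 5, 3, 5 and 3 of them seen and Camp and Ly6g at 0 in each group, and the 5 B cell markers to 48.3, 25.4, 16.7 and 16.3 CPM, with 3, 2, 3 and 2 of them seen. The part of depth and of these markers in the result was not tested.

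Within the 538 macrophages at or below the median MHC class II level, that level was 649 CPM with high Arg1 and 622 CPM with none. There Hmox1 was at 3619 CPM with high Arg1 and 1919 CPM with none, 1.89-fold higher (1.67 to 2.13). Fth1 was at 29546 and 24031 CPM, 1.23-fold (1.19 to 1.27), below 1.5-fold, and Ftl1 at 21241 and 21378 CPM, a ratio of 0.994 (0.955 to 1.03). Cd163 was 1.59-fold higher with an interval that holds 1 (0.906 to 2.91). Slc40a1 had 5 UMIs in 136 macrophages with high Arg1 and 18 UMIs in 130 with none, 16.3 and 96.5 CPM, a ratio of 0.169 (0.0491 to 0.473). This division was added after the values were seen.

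In the 538 macrophages above the median, the MHC class II level itself still differed, at 11881 CPM with high Arg1 and 30293 CPM with none. There Fth1 was 1.55-fold higher with high Arg1 (1.49 to 1.62), Hmox1 2.36-fold (2.07 to 2.69), Slc11a1 2.01-fold (1.15 to 3.52) and Blvrb 1.57-fold (1.18 to 2.07). Cd163 was 2.80-fold higher (1.42 to 5.61), from 22 UMIs with high Arg1 and 17 with none, too few for its ratio to be counted. Slc40a1 had 4 UMIs in 93 macrophages with high Arg1 and 3 in 258 with none, a ratio of 2.88. Its interval of 0.487 to 19.7 holds 1, so these counts give Slc40a1 no direction above the median. Over all macrophages Fth1 was below 1.5-fold, at a log2 ratio of 0.56, both with at least 10 C1q UMIs per cell and when cells were thinned to 1000 UMIs and regrouped as 5 or more against 0 Arg1 UMIs.

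Of the other iron and heme genes, 18 had enough UMIs between high and no Arg1, and 8 were at least 1.5-fold higher and 0 at least 1.5-fold lower, with a median log2 ratio of 0.52. Marco, Cd36 and Msr1, scavenger receptors, had the largest ratios of the 18, and Mrc1 stayed below the fold. Marco was at 260 CPM with high Arg1 and 43.0 CPM with none, 6.05-fold higher (3.89 to 9.79), Cd36 at 388 and 96.7 CPM, 4.01-fold higher (2.95 to 5.54), and Msr1 at 189 and 59.1 CPM, 3.20-fold higher (2.13 to 4.91). Mrc1 was at 158 and 115 CPM, a ratio of 1.38 (0.981 to 1.96). Lrp1, the receptor for hemopexin bound to heme, was 2.46-fold higher (1.68 to 3.66) and Fbxl5 1.97-fold higher (1.15 to 3.45). Gclm, of glutathione synthesis, was 1.67-fold, Hp, haptoglobin, 1.60-fold and Trf 1.59-fold higher. Hmox2 was at 58.9 CPM with high Arg1 and 66.2 CPM with none, a ratio of 0.889 (0.528 to 1.49).

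Haemoglobin UMIs (Hba-a1, Hba-a2, Hbb-bs and Hbb-bt) per macrophage were 0 in 310 cells, 1 to 4 in 696, 5 to 19 in 33 and 20 or more in 37. Between 1 and 4 were also seen in 74.1% of tumour-like cells, against 64.7% of macrophages, at median depths of 5011 and 1639.5 UMIs. Haemoglobin made up 1.33% of the UMIs in barcodes with 1 to 50 UMIs, which at the estimated share of free RNA comes to 2.20 haemoglobin UMIs in a macrophage of median depth. Barcodes with 100 to 200 UMIs gave 0.769% and 1.31 UMIs, and the median macrophage had 1. Red cells taken up and red cells or their RNA in the same droplet cannot be told apart in these counts. Levels below leave haemoglobin out of the denominators.

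Few genes of the route passed the fold with haemoglobin. Of 7 members with at least 50 UMIs, Cd163 was at least 1.5-fold higher with 5 or more haemoglobin UMIs than with 0, where 5.47% of 1244 genes were, and none was at least 1.5-fold lower, where 6.99% of genes were. The median log2 ratio was 0.38 over the 7, and -0.04 over all genes tested.

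Cd163 was at 96.6, 131, 108 and 250 CPM with 0, 1 to 4, 5 to 19 and 20 or more haemoglobin UMIs. With 5 or more it was at 178 CPM, against 96.6 CPM with 0, 1.85-fold higher (1.10 to 3.04), from 26 UMIs in 70 macrophages and 48 in 310. With 20 or more it was 2.59-fold higher than with 0 (1.42 to 4.53), from 18 UMIs in 37 macrophages, where 7.47% of 1124 genes were at least 1.5-fold higher. Its UMIs were seen in 24.3% of those 37 cells and 13.2% of the 310 without haemoglobin, at median depths of 2319 and 1507.5 UMIs. Depth here counts haemoglobin, which was at 223935 CPM of all UMIs in those 37 cells.

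Hmox1 was at 2330, 2422, 3811 and 3096 CPM over the haemoglobin groups, so it did not follow their order at the top. With 5 or more haemoglobin UMIs it was 1.48-fold higher than with 0 (1.33 to 1.65), just under the fold used. Fth1 was at 23139, 23912, 30267 and 29817 CPM over the groups, and with 5 or more haemoglobin UMIs 1.30-fold higher than with 0 (1.25 to 1.34). Ftl1 was at 23323 CPM with 5 or more and 20417 CPM with 0, 1.14-fold (1.10 to 1.19). Slc48a1 was at 281 and 193 CPM, 1.46-fold (0.985 to 2.12), Blvrb at 583 and 503 CPM, 1.16-fold (0.895 to 1.49), and Slc11a1 at 117 and 123 CPM, a ratio of 0.950 (0.520 to 1.65). Blvra had 11 and 38 UMIs and Slc40a1 4 and 14 UMIs, at 75.5 and 76.5 CPM and at 27.4 and 28.2 CPM. For Slc40a1, Blvra, Blvrb, Slc11a1 and Slc48a1 the intervals of the ratio hold 1 and reach 1.48, the ratio of Hmox1, or beyond, so a difference of that size is not excluded by these counts.

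**Figure D5:**
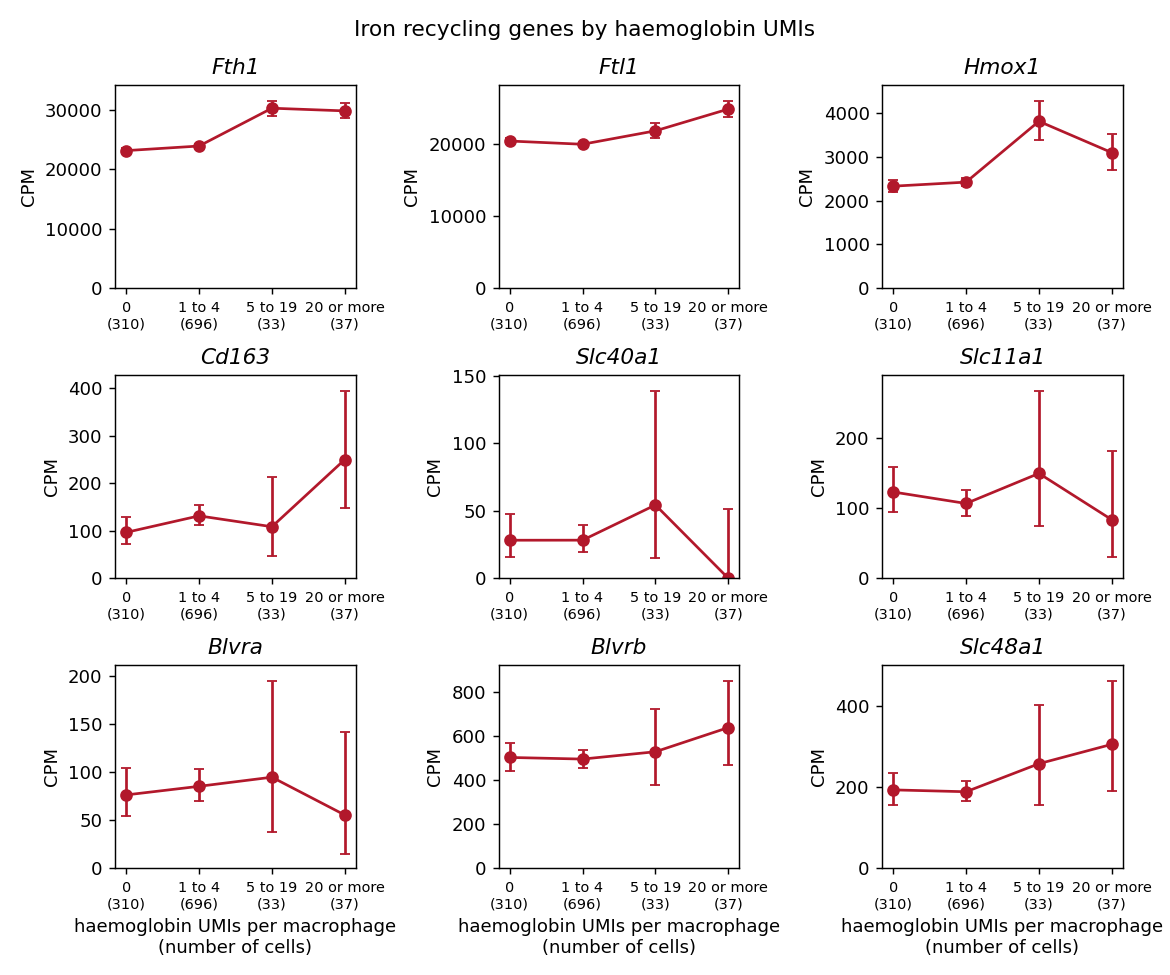
CPM of the 9 genes (y axes, each from 0) in macrophages with 0, 1 to 4, 5 to 19 and 20 or more haemoglobin UMIs (x axes, number of cells in brackets), with exact 95% Poisson intervals. Cd163 is highest at 20 or more (250 CPM), Hmox1 at 5 to 19 (3811 CPM), and the intervals are wide in the 33 and 37 cells of the upper groups.

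Over the same 4 haemoglobin groups median depth, haemoglobin included, was 1507.5, 1641, 2267 and 2319 UMIs. Arg1 was at 1823, 2242, 2644 and 2471 CPM over them and the 4 MHC class II genes at 12146, 10239, 8503 and 6496 CPM. The 10 epithelial or mesothelial markers summed to 92.5, 130, 108 and 167 CPM, with 7, 8, 3 and 5 of them seen and Epcam and Cdh1 at 0 in each group. The 4 monocyte markers summed to 219, 218, 81.4 and 97.2 CPM, with 3, 4, 2 and 1 of them seen, and the 9 neutrophil markers to 64.4, 164, 271 and 83.3 CPM, with 3, 7, 4 and 1 of them seen and Camp and Ly6g at 0 in each group. The part of these in the result was not tested. Of 14 other iron and heme genes with enough UMIs, 0 were at least 1.5-fold higher or lower with 5 or more haemoglobin UMIs than with 0, and their median log2 ratio was 0.20. Mrc1 was at 171 and 125 CPM, 1.37-fold (0.828 to 2.22), Cd36 at 309 and 237 CPM, 1.30-fold (0.901 to 1.85), and Marco at 130 and 125 CPM, 1.04-fold (0.590 to 1.77). With 20 or more haemoglobin UMIs, against 0, Cd36 was 1.70-fold higher (1.09 to 2.56), the 1 of 13 such genes past the fold, and Mrc1 was at a ratio of 0.668 (0.236 to 1.54), from 6 and 62 UMIs.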

How the data were processed

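The values analysed are raw UMI counts per gene and barcode, deposited by the authors as an unfiltered matrix of 737280 barcodes and 35733776 UMIs. No source used here gives the aligner, the counting settings or the genome build. A bulk table of 8 columns was left out because their names match no sample label. The members, the iron and heme list and the alternatives were chosen with earlier results of these data known.

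Cells and macrophages were selected as stated in the report, and doublets were marked with Scrublet (scanpy 1.11.5) but kept, other than in 1 alternative. Other classes were set by sums of marker UMIs, not by clustering. Counts were summed per group of cells and given as CPM with exact Poisson intervals, and ratios have exact conditional binomial intervals. Shares of cells have exact Clopper-Pearson intervals. A gene needed 50 UMIs in both groups together for a ratio to be counted, and a sum of 0 was raised to 3 UMIs for the ratios over all genes. No p-value was computed, since cells are not replicates. Counts were thinned without replacement (seed 1). The scripts were tested on simulated data. Named genes were the 9 members, the genes of the iron and heme list with at least 50 UMIs in macrophages, Arg1, the haemoglobin genes and the 5 genes most correlated with Fth1, Ftl1, Hmox1 and Blvrb; Tfrc was added for its hairpins. The values of 1 gene of that list are not reported here. Positions and transcripts were read from GENCODE M21 (GRCm38), and no coordinate was taken from the authors' files. Python 3.11.15, numpy 2.4.6, scipy 1.17.1, pandas 2.3.3, anndata 0.12.19 and matplotlib 3.10.9 were used.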

Additional observations from a re-analysis of the deposited data

How the results depend on the processing

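The count of 8 members at least 2-fold higher in macrophages was 8 under all 7 alternatives run. The count of 3 with Arg1 was 1 (Hmox1) with cells thinned to 1000 UMIs and regrouped as 5 or more against 0 Arg1 UMIs, where Cd163 had too few UMIs to be counted, and 0 for high over low Arg1. It was 2 with at least 10 C1q UMIs per cell (Hmox1 and Cd163) and 4 without any epithelial UMI (Fth1, Hmox1, Cd163 and Slc11a1). At or below the median MHC class II level it was 2 (Hmox1 and Cd163). Above that median it was 4 (Fth1, Hmox1, Slc11a1 and Blvrb), with too few Cd163 UMIs to be counted. The count of 1 with haemoglobin was 2 without any epithelial UMI (Hmox1 and Cd163), 2 after thinning (Hmox1 and Slc48a1, with too few Cd163 UMIs to be counted), 2 for 20 or more over 0 (Cd163 and Slc48a1) and 0 for 1 or more over 0. The correlation of Fth1 with Hmox1, 0.50, was 0.39 in 317 macrophages thinned to 2000 UMIs and 0.44 in 472 at or below the median MHC class II level, an alternative added after the data were seen. The log2 ratio changed sign for high over low Arg1 in Ftl1 (-0.020), Blvrb (-0.18) and Slc48a1 (-0.084), for 1 or more haemoglobin UMIs over 0 in Ftl1 (-0.0068), and with Arg1 at or below the median MHC class II level in Ftl1 (-0.0092). The causes were not tested. Of the other values of single genes, 45 moved beyond their counting interval and 142 did not. Part of the 142 could not move: 0 macrophages were marked as doublets, so leaving doublets out changed no ratio between macrophages. A limit of 10% mitochondrial UMIs also left the Arg1 ratios unchanged. Depth limits Slc40a1 most, with 53 UMIs in all macrophages. No paired analysis was possible because the comparisons are within 1 single-cell library, and the numbered bulk libraries were not analysed here.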

Other observations

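Barcodes left out for having under 200 genes held another source of the route's RNA. The 474 of them with at least 500 UMIs had 487916 UMIs, 83.4% of them haemoglobin. Outside haemoglobin, Blvrb, also known as an enzyme of red cells, was at 1063 CPM there (850 to 1313), against 86.0 CPM in barcodes with 1 to 50 UMIs and 131 CPM in those with 100 to 200. Ftl1 was at 7392 CPM (6811 to 8009), against 3452 and 2762 CPM in the same 2 sets of barcodes. Fth1, at 8294 CPM (7679 to 8946), did not stand apart from their 7655 and 8373 CPM, and Hmox1 had 9 UMIs, 111 CPM (50.9 to 211), against 192 and 152 CPM. Cd163 had 0 UMIs in these barcodes.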
